A study of Mus musculus with 15 samples.

Results

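Kinesins are the motor proteins that walk along microtubules, and the genes described here are the kinesin genes read in the mouse optic nerve: the rows named Kif followed by a number, with the kinesin light chain genes Klc1, Klc2 and Klc4, which encode cargo-binding subunits and are not motors themselves. The name rule took 34 of the 14237 genes listed, it used no measured value, and Kif1bp, which encodes a kinesin-binding protein, was left out. Optic nerve RNA of adult C57BL/6J mice was sequenced in 3 groups of 5 libraries, numbered 2 to 6 in each. Crush AAV-CNTF nerves came from eyes injected in the vitreous with AAV2 (an adeno-associated virus, used to deliver genes) that expressed a secreted form of the cytokine CNTF, with the optic nerve crushed 2 weeks later and collected 7 days after crush. Crush AAV-null nerves had the control virus AAV-null and the same crush at the same times. Sham nerves had AAV-null and a sham operation in which the nerve was exposed and not crushed, for which the labels give no times. All 3 groups thus carried a virus, and no nerve without virus and no sham nerve with AAV-CNTF was compared.

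Kinesins divide by what they move. Kinesin-1 is built of heavy chains (the motors Kif5a, Kif5b and Kif5c) and light chains, and with the kinesin-3 motors of the Kif1, Kif13 and Kif16 families it carries vesicles, mitochondria and cytoskeletal proteins outwards along axons and glial processes. Kinesin-2 (Kif3a with Kif3b or Kif3c) works in axons and in the building of cilia, and a separate group assembles and separates chromosomes on the spindle and closes the daughter cells in cytokinesis, so its transcripts are found mostly in dividing cells. The optic nerve holds axons of retinal ganglion cells, whose nuclei lie in the retina, and its resident cells are mainly glia.

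By textbook role the 34 members were 15 transport genes (6 of kinesin-1, 3 of kinesin-2 and 6 of kinesin-3), 10 genes of mitosis and cytokinesis, 5 genes of cilia and 4 other genes of microtubule dynamics. Another 10 genes of the role lists (Kif17, Kif16a, Kif28, Kif19b, Kif27, Kif2b, Kif14, Kif12, Kif25 and Kif26b) were not among the listed genes. They could not be analysed here, and Kif2b and Kif14 of them have a mitotic role. In every listed gene FPKM (the authors' unit, a read level per gene length and library size) reached 1 in at least 4 libraries of 1 of the groups. For 11 members, among them 9 of the 10 mitotic genes (Kif4 is the other), that group was a crush group and not sham. These genes were in the table because they were high after crush, so the number of them that were higher after crush is a description and supports nothing. All 34 passed the low-count filter of the test.

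The promoters of 27 members were found in RefSeq (assembly GRCm38.p6), each as 250 bases before to 50 bases after the start of transcription. They were searched on both strands for TTTGAA, the core of the cell cycle homology region (an element known in promoters of genes used late in the cell cycle), its rarer form TTCGAA, and CCAAT, the box read by the factor NF-Y. TTTGAA was found in 8 of 9 mitotic promoters (Kif18a had none) and in 1 of 18 others, that of an inner start of Kif1a, against 20.23% of 27025 genes of the table and 14.06% of 10300 genes tested here. Within 50 bases of the start on either side it was found in 7 of the 9, against 5.721% of the table. The match of Kif2c is outside that stretch, 103 bases before a RefSeq start that lies 3867 bases inside the GENCODE M21 gene, 28 bases from the start of another of its transcripts. CCAAT was found in 5 of the 9 mitotic promoters, against 41.06% of the table, and TTCGAA in 1 member (Kif24), against 1.802%. No match of one motif overlapped a match of another in the members. The motifs were chosen with the values of these genes known, and a match is no sign that a factor binds. The 7 windows printed here run from 110 bases before to 50 bases after the start, 5′ to 3′ on the gene's strand, and are shown because each has TTTGAA (or its reverse complement TTCAAA) within 50 bases of the start of a mitotic kinesin. The RefSeq start of Kif4 lies 328 bases inside its GENCODE gene, and the starts of the other 6 are within 51 bases of theirs. Capitals mark TTTGAA and CCAAT on either strand. They lie at chr11:102925075-102925234 (Kif18b, minus strand), chr9:61946750-61946909 (Kif23, minus), chr19:37376272-37376431 (Kif11, plus), chr9:122950971-122951130 (Kif15, plus), chr19:34922248-34922407 (Kif20b, plus), chr7:127042371-127042530 (Kif22, minus) and chrX:100625955-100626114 (Kif4, plus).
Kif18b: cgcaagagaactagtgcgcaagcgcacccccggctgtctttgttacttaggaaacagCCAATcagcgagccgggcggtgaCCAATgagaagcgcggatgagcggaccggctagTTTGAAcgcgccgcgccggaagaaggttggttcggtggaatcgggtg
Kif23: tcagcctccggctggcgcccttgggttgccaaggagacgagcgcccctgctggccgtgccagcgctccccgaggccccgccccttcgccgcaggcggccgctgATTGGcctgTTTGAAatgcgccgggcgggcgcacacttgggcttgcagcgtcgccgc
Kif11: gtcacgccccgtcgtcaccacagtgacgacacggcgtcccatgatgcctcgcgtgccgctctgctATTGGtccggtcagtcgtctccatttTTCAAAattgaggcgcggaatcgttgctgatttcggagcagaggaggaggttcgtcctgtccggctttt
Kif15: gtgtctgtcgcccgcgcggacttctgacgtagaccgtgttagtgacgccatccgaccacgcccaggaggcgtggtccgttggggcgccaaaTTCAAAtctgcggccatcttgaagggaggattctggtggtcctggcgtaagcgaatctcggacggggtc
Kif20b: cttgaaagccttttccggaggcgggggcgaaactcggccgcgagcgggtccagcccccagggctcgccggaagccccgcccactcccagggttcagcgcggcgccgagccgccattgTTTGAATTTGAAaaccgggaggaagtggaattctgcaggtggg
Kif22: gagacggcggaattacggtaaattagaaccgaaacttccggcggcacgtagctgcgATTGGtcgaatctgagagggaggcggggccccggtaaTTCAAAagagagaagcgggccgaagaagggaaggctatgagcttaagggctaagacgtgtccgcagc
Kif4: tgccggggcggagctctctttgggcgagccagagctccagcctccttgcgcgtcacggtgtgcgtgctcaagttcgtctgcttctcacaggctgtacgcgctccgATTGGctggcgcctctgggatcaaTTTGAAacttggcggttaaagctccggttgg

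The libraries held 19856688 to 29558293 expected counts (RSEM's estimate of reads per gene) over the listed genes, and members made up 0.2856% ± 0.0188 of them in crush AAV-CNTF libraries, 0.3173% ± 0.0209 in crush AAV-null libraries and 1.447% ± 0.1603 in sham libraries (SD, n = 5 each). Crush AAV-null replicate 6 stood apart on the second principal component of all genes and had 3.18% of listed genes at 0, against 0.98% to 2.29% in the others. Transcripts of oligodendrocytes were abundant. Mbp, a myelin protein gene, averaged 7545 ± 1455 FPKM in crush AAV-CNTF, 9203 ± 1629 in crush AAV-null and 18730 ± 1960 in sham nerves (SD, n = 5 each). Of 4 markers of retinal ganglion cell bodies, Pou4f1 and Slc17a6 were not among the listed genes. Rbpms averaged 20.08 CPM (counts made comparable between libraries by depth and TMM scaling) in crush AAV-CNTF, 18.54 CPM in crush AAV-null and 12.93 CPM in sham nerves. Sncg averaged 2.17, 1.784 and 6.303 CPM in the same order, and edgeR, the main test, called neither in any comparison. In crush AAV-null against sham, DESeq2 called 1 of the 2 lower. Limma on the authors' FPKM called 1 higher with 0.1 added to each value, and 1 each way with 1 added.

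The first question was what the injury did to kinesin transcripts, in crush AAV-null against sham nerves. Transport kinesins were lower and mitotic kinesins higher after crush: 12 of 15 transport genes fell and 1 rose, and 8 of 10 mitotic genes rose and none fell. Kif5a, a neuronal kinesin-1 motor, fell 35.7-fold and was the most abundant member in sham and the fifth in crush nerves by FPKM. Kif2c, which takes microtubules apart at centromeres, was at 0 in each sham library and present in all 5 crush AAV-null libraries. Over all roles 11 members were higher and 14 lower (edgeR, quasi-likelihood test, p-values adjusted by Benjamini-Hochberg over 14194 genes, threshold 0.05), where 14.7% of all genes tested were called higher and 12.9% lower. As said above, 9 of the 10 mitotic genes were listed through a crush group, so the number of mitotic rises is a description only. The 15 transport genes had a median log2 fold change of -1.01, and all genes one of 0.00. In these bulk samples fewer cells or axons of a type and less RNA per cell cannot be told apart.

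**Figure D1:**
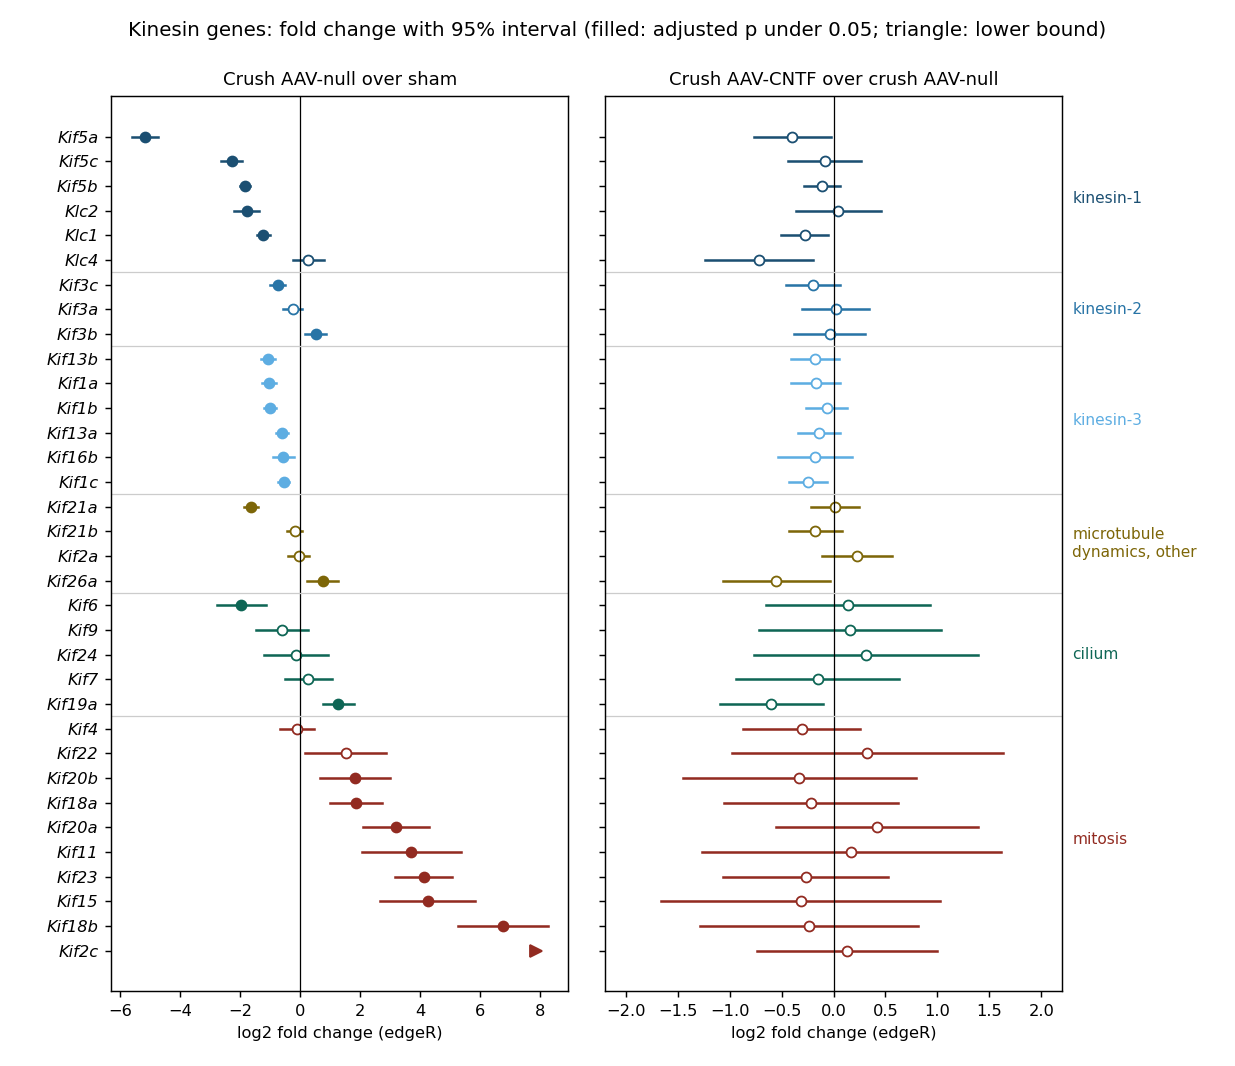
Log2 fold change of the 34 members with its 95% interval (lines), in crush AAV-null over sham on the left and in crush AAV-CNTF over crush AAV-null on the right, by role. Filled points passed the test (adjusted p under 0.05). The triangle is the lower bound for Kif2c, which had no count in sham. On the left kinesin-1 and kinesin-3 genes lie mostly below 0 and mitotic genes mostly above it, and on the right no point is filled.

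Kinesin-1 heavy chains changed most among the transport genes. Kif5a (chr10:127225696-127263348, minus strand, mm10, GENCODE M21), which in neurons carries neurofilaments among other cargo and is mutated in a human hereditary spastic paraplegia, had 231.5, 177, 234, 150.2 and 265 CPM in crush AAV-CNTF, 404, 174, 236, 285 and 294 CPM in crush AAV-null and 10290, 8600, 9503, 11920 and 9494 CPM in sham libraries, each in the order of replicates 2 to 6. The lowest sham library was far above the highest crush library. The log2 fold change was -5.16 ± 0.21 (SE; edgeR adjusted p = 2.92e-12), the smallest p of all 14194 genes tested (rank 1).

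Kif5b, the heavy chain found in most cell types, had 288.5, 319, 282, 292 and 282 CPM in crush AAV-CNTF, 322, 289.7, 319, 312 and 338 CPM in crush AAV-null and 1156, 1017, 1048, 1266 and 1145 CPM in sham libraries. It fell by 1.83 ± 0.08 on the log2 scale (SE; edgeR adjusted p = 8.9e-12), and the groups did not overlap. Kif5c, a heavy chain enriched in neurons, had 35.2, 37.1, 39.8, 23.4 and 34.1 CPM in crush AAV-CNTF, 54.9, 35.2, 32.6, 30.6 and 26.7 CPM in crush AAV-null and 196, 158, 153, 194 and 172 CPM in sham libraries. This gene fell by 2.28 ± 0.17 (SE; edgeR adjusted p = 6.21e-09), again with no sham library as low as a crush library.

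The heavy chains did not fall in step. Per length, Kif5a made up 40.67% ± 7.494 of the heavy chain FPKM in crush AAV-CNTF nerves, 38.21% ± 2.453 in crush AAV-null nerves and 87.82% ± 1.149 in sham nerves (SD, n = 5 each). Its highest share in a crush library was 48.72% and its lowest in a sham library 85.98%. Kif5b held most of the remainder, 52.98% ± 9.024, 51.87% ± 5.217 and 10.24% ± 1.041 in the same order, so that Kif5b and not Kif5a had the higher mean FPKM after crush. By FPKM Kif5a averaged 56.09 ± 14.47 in crush AAV-CNTF, 60.28 ± 11.54 in crush AAV-null and 2049 ± 272.7 in sham nerves (SD, n = 5 each). Among all listed genes those means ranked 1416, 1256 and 45. Kif5a alone held 59.07% ± 2.659 of the members' summed FPKM in sham.

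**Figure D2:**
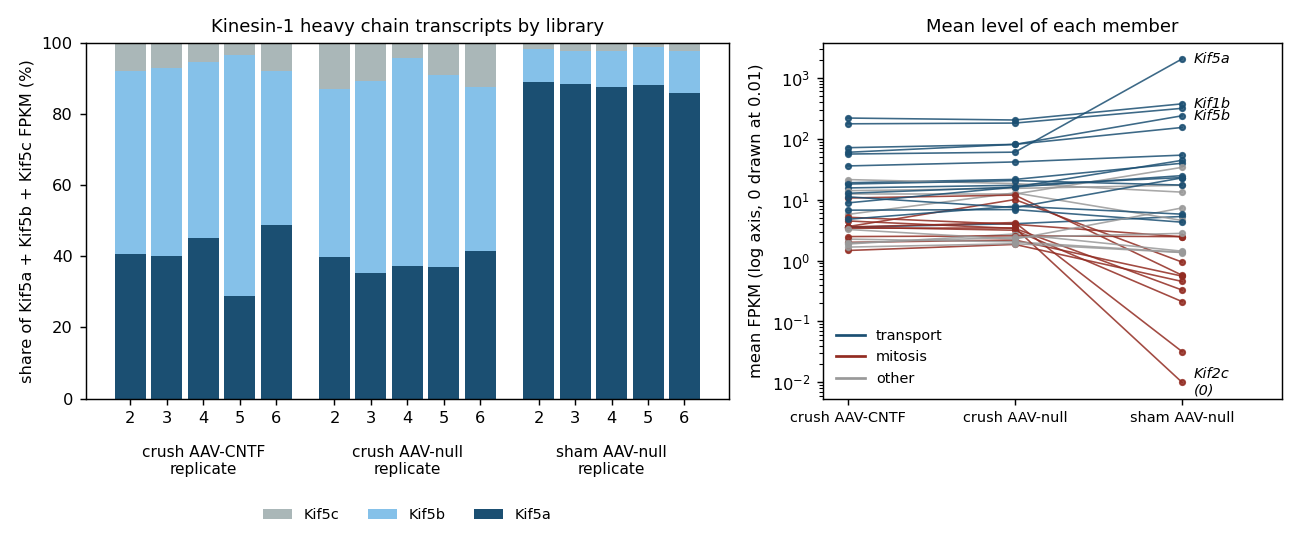
Left, the share of Kif5a, Kif5b and Kif5c in the summed FPKM of the kinesin-1 heavy chains, 1 bar per library (replicates 2 to 6 of each group). Right, mean FPKM of each of the 34 members per group on a log axis, with Kif2c at 0 in sham drawn at 0.01. Kif5a takes at least 85.98% of a sham bar and at most 48.72% of a crush bar.

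Light chains link the motor to cargo. Klc1, the light chain most studied in neurons, had 117, 129, 122, 108 and 119.5 CPM in crush AAV-CNTF, 176, 123, 163, 149.8 and 111.5 CPM in crush AAV-null and 359, 347.5, 302, 327.5 and 346 CPM in sham libraries. It fell by 1.22 ± 0.11 on the log2 scale (SE; edgeR adjusted p = 5.94e-08) with no overlap. Klc1 overlaps Xrcc3 on the other strand, which was also lower (-0.86, edgeR adjusted p = 0.00218), and the sources used here do not say whether the counting used strand. Klc2 had 16.2, 25.9, 15.8, 12.65 and 11.4 CPM in crush AAV-CNTF, 12, 14.4, 19.5, 18.2 and 15.2 CPM in crush AAV-null and 57.5, 47.3, 62.6, 52.7 and 51.2 CPM in sham libraries. Klc2 fell by 1.77 ± 0.20 (SE; edgeR adjusted p = 1.04e-06), and its crush and sham libraries did not overlap. Klc4 was not called, with 15.99 ± 3.903 CPM in crush AAV-null and 13.25 ± 2.11 CPM in sham nerves (SD, n = 5 each). The ratio of summed heavy chain to light chain FPKM was 1.805 ± 0.2297 in crush AAV-CNTF, 1.704 ± 0.3753 in crush AAV-null and 12.85 ± 1.822 in sham nerves (SD, n = 5 each).

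Of the 6 kinesin-3 genes all 6 fell in crush AAV-null nerves, by less than the kinesin-1 heavy chains. Kif1a, which carries synaptic vesicle precursors and dense core vesicles in neurons, had 495, 484.5, 457, 347.5 and 477 CPM in crush AAV-CNTF, 537.5, 419.9, 577, 561.5 and 450.4 CPM in crush AAV-null and 1129, 946, 904, 1112 and 1085 CPM in sham libraries. It fell by 1.02 ± 0.11 on the log2 scale (SE; edgeR adjusted p = 9.01e-07). Kif1b, whose isoforms carry mitochondria and synaptic vesicle precursors and which in zebrafish is needed to bring Mbp mRNA into the processes of myelinating oligodendrocytes, had 800, 765, 726.5, 600.2 and 796 CPM in crush AAV-CNTF, 772, 690.3, 845, 751 and 804 CPM in crush AAV-null and 1627, 1535, 1360, 1547 and 1735 CPM in sham libraries. The change of Kif1b was -1.01 ± 0.10 (SE; edgeR adjusted p = 1.2e-07). In both genes all sham libraries lay above all crush libraries.

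Kif13b, which binds the scaffold protein Dlg1, had 102, 92.6, 90.2, 105 and 105 CPM in crush AAV-CNTF, 125, 101, 128, 116 and 89.85 CPM in crush AAV-null and 233, 215, 198, 233 and 283 CPM in sham libraries. Kif13b fell by 1.06 ± 0.11 on the log2 scale (SE; edgeR adjusted p = 4.48e-07) without overlap. Kif1c, a widely expressed vesicle motor, had 155.5, 168, 152, 158 and 179.5 CPM in crush AAV-CNTF, 195, 162, 193, 199.8 and 213.5 CPM in crush AAV-null and 257, 283, 269, 280.3 and 313 CPM in sham libraries. It was 1.46-fold lower in crush AAV-null nerves (edgeR adjusted p = 7.35e-05). Kif13a, a motor of recycling endosomes, averaged 110.7 ± 12.9 CPM in crush AAV-null and 167.2 ± 11.96 CPM in sham nerves (SD, n = 5 each; edgeR adjusted p = 7.89e-05). Kif16b, a motor of early endosomes, averaged 21.97 ± 4.543 and 32.28 ± 6.474 CPM in the same order (edgeR adjusted p = 0.0173), with overlapping libraries. Its call was lost without sham replicate 2 (adjusted p = 0.0661), and Kif16b and Kif1c were not called when limma was run on the authors' FPKM (adjusted p from 0.0552 to 0.166 over both pseudocounts). Within the Kif1 family the FPKM shares of the groups overlapped, Kif1b holding 50.83% ± 4.498 in crush AAV-CNTF, 47.85% ± 4.571 in crush AAV-null and 50.42% ± 2.322 in sham nerves (SD, n = 5 each).

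**Figure D3:**
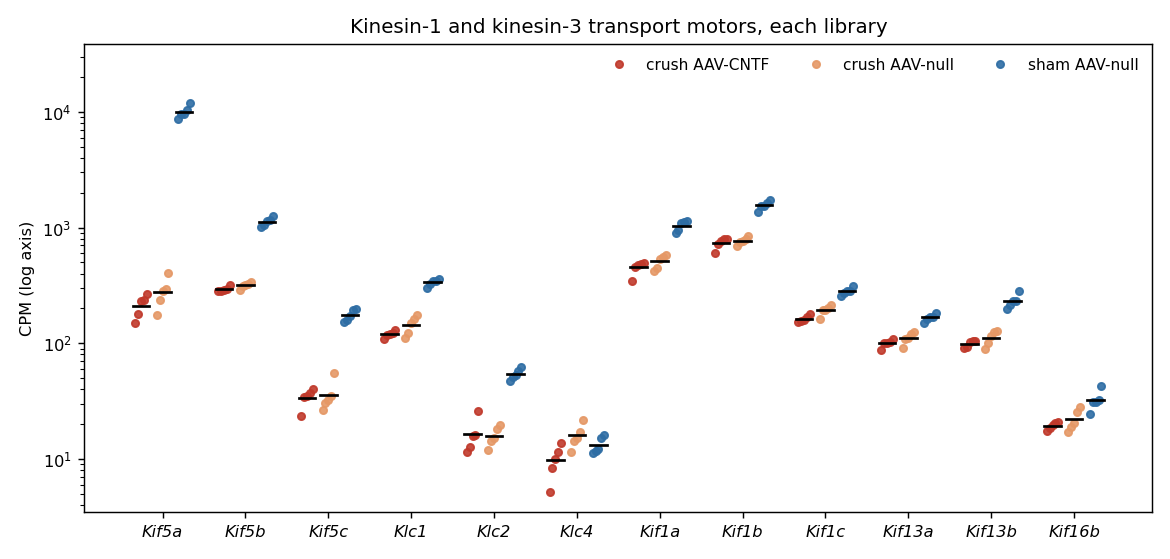
CPM of the kinesin-1 and kinesin-3 genes in each library on a log axis, with crush AAV-CNTF, crush AAV-null and sham from left to right within each gene. Points are libraries and black bars are means. For Kif5a the 5 sham libraries lie from 8600 to 11920 CPM and the 10 crush libraries from 150.2 to 404.4 CPM, and for Klc4 all groups overlap.

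Kinesin-2 moved in both directions. Kif3c, which pairs with Kif3a and is mainly neuronal, averaged 73.35 ± 7.926 CPM in crush AAV-null and 123.2 ± 14.95 CPM in sham nerves (SD, n = 5 each) and fell by 0.75 ± 0.12 on the log2 scale (SE; edgeR adjusted p = 0.000103). Kif3b, the partner of Kif3a in cilia, averaged 36.04 ± 3.672 and 25.17 ± 5.873 CPM in the same order and rose by 0.52 ± 0.16 (SE; edgeR adjusted p = 0.0231). That call was lost without crush AAV-null replicate 4, sham replicate 2 or sham replicate 5 (adjusted p 0.0513, 0.061 and 0.0661). Kif3a, the subunit common to both motors, averaged 40.53 ± 9.012 and 47.99 ± 6.876 CPM and was not called. Per length, Kif3c held 37.7% ± 6.61 of the kinesin-2 motor FPKM in crush AAV-null and 53.51% ± 4.796 in sham nerves (SD, n = 5 each). In 14 libraries the count of Kif3c was not a whole number, so some of its reads were shared with another gene.

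Beside these falls, neurofilament genes and oligodendrocyte markers were also lower, and so were 3 of 4 astrocyte markers by edgeR. The neurofilament genes Nefl, Nefm and Nefh, which encode the main filaments of axons, all fell (3 of 3, log2 fold changes -5.44, -3.06 and -5.52). Their summed FPKM ranged from 0.54 to 1.38 in crush AAV-CNTF, 0.48 to 1.72 in crush AAV-null and 27.83 to 34.77 in sham libraries. The 5 oligodendrocyte markers also fell (5 of 5), with sums of 9119 to 13250, 11570 to 15860 and 23450 to 30190 FPKM in the same order. Per length Kif5a was far above each neurofilament gene in sham, where Nefh, the highest of them, averaged 19.97 ± 2.467 FPKM (SD, n = 5). Of the 4 astrocyte markers 3 fell, Gfap by 0.48, Aqp4 by 0.62 and Slc1a3 by 0.48 on the log2 scale (edgeR adjusted p = 0.000899, 0.000574 and 0.00477), while Aldh1l1 was not called, at 50.96 CPM in crush AAV-null and 45.46 CPM in sham nerves. The astrocyte markers summed to 1504 to 1863 FPKM in crush AAV-CNTF, 1365 to 1848 in crush AAV-null and 1834 to 2150 in sham libraries. In limma on the authors' FPKM 0 of the 4 astrocyte markers were called. The 3 neurofilament and 5 oligodendrocyte genes were still called lower there. The part of axons and of these cell types in the falls of the kinesins was not tested.

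Genes that tie kinesins to their cargo fell with the transport motors. Of 16 adaptor genes tested in crush AAV-null against sham, 10 fell and 1 rose, with a median log2 fold change of -0.63. Of all genes 12.9% were called lower and 14.7% higher. The liprin genes Ppfia3 and Ppfia2, which link Kif1a to synaptic cargo, fell by 4.04 ± 0.34 and 3.23 ± 0.57, and Mapk8ip2, a scaffold that binds the light chains, fell by 3.58 ± 0.22 (SE; edgeR adjusted p = 1.97e-08, 0.000197 and 3.56e-10). Trak2, which joins mitochondria to kinesin-1, fell by 1.30 ± 0.12 (SE; edgeR adjusted p = 6.03e-08). Its relative Trak1 did not pass, at 111.1 CPM in crush AAV-null and 116.5 CPM in sham nerves. Madd, an adaptor of Kif1a and Kif1b, rose by 0.82 ± 0.20 (SE; edgeR adjusted p = 0.00402). In limma on the authors' FPKM 7 of the adaptors were lower and 1 higher.

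Cytoplasmic dynein is the motor that runs the other way. Of 26 genes of dynein and dynactin tested, 4 rose and 6 fell, with a median log2 fold change of -0.03, in a comparison where 14.7% of all genes were called higher and 12.9% lower. The motor's heavy chain Dync1h1 averaged 743.6 CPM in crush AAV-null and 794.3 CPM in sham nerves and was not called (edgeR adjusted p = 0.426). In limma on FPKM 6 of these genes were higher and 0 lower, so their split depends on the scale. Of 6 related genes outside the members, 2 rose and 2 fell. Cenpe, a kinetochore motor, and Kifc1, a spindle motor that runs towards minus ends, rose by 3.08 and 2.95 on the log2 scale. Kifc2, a minus-end motor of neurons, fell by 1.08. Kif1bp fell by 0.36 (edgeR adjusted p = 0.00976) and was not called in limma on FPKM. Kifc3 and Kifap3, the accessory subunit of kinesin-2, were not called (-0.27 and -0.14, edgeR adjusted p = 0.4 and 0.519).

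Of the 10 mitotic kinesins 8 averaged under 1 FPKM in sham. Kif2c (chr4:117159639-117182639, minus strand) had 5.65, 6.83, 7.67, 8.32 and 8.06 CPM in crush AAV-CNTF, 9.93, 9.07, 3.42, 4.69 and 6.29 CPM in crush AAV-null and 0 CPM in every sham library. Against a floor of 3 counts over the sham group it was at least 234.5-fold higher in crush AAV-null and at least 260.9-fold higher in crush AAV-CNTF nerves. Kif18b, which acts on microtubule ends with Kif2c, had 13.7, 9.82, 9.875, 9.61 and 10.5 CPM in crush AAV-CNTF, 8.65, 15.2, 12.4, 14.1 and 12.7 CPM in crush AAV-null and 0, 0.554, 0, 0 and 0 CPM in sham libraries. Its log2 fold change was 6.75 ± 0.72 (SE; edgeR adjusted p = 4.72e-07). Sham replicate 3 held all its sham counts, and without that library the fitted value was 11.26, which rests on zeros and is no measure of size. The promoter window of Kif18b has a pair of CCAAT boxes ahead of TTTGAA.

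Kif15, a plus-end spindle motor that can stand in for Kif11, had 8.41, 10.4, 10.5, 2.355 and 3.83 CPM in crush AAV-CNTF, 5.18, 9.02, 6.07, 8.17 and 15.7 CPM in crush AAV-null and 0, 0.923, 0, 0.804 and 0.567 CPM in sham libraries. It rose by 4.25 ± 0.76 (SE; edgeR adjusted p = 0.000213). Kif11 (Eg5), which pushes the spindle poles apart, had 11.3, 14.3, 21.9, 17.9 and 13.2 CPM in crush AAV-CNTF, 11.3, 16.4, 17.4, 8.08 and 16.3 CPM in crush AAV-null and 0, 0, 2.47, 0 and 2.75 CPM in sham libraries. Kif11 rose by 3.70 ± 0.79 (SE; edgeR adjusted p = 0.00122), and without sham replicate 6 by 4.46. The authors' deposited table did not call Kif11 in crush AAV-null against sham (adjusted p = 0.0727). The 3 sham libraries at 0 and the others at 2.467 and 2.753 CPM were all below every crush library.

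Kif23, the motor subunit of the centralspindlin complex of the cell midzone, had 10.9, 7.14, 9.195, 14.7 and 7.07 CPM in crush AAV-CNTF, 8.8, 14.7, 12.9, 9.66 and 13 CPM in crush AAV-null and 0.147, 1.15, 0.5585, 1.18 and 0.364 CPM in sham libraries. The rise of Kif23 was 4.12 ± 0.45 (SE; edgeR adjusted p = 6.62e-07). Kif20a, which brings the Aurora B complex to the midzone, had 11.7, 12.4, 14.3, 19.7 and 14.4 CPM in crush AAV-CNTF, 6.21, 16.4, 8.89, 11.8 and 10.8 CPM in crush AAV-null and 0.049, 0.6, 2.23, 0.751 and 2.19 CPM in sham libraries. It was 9.19-fold higher in crush AAV-null nerves (edgeR adjusted p = 7.82e-05). No crush library overlapped with sham in either gene. Kif20a overlaps Cdc23 on the other strand and its counts were not whole in 14 libraries, while Cdc23 averaged 31.36 CPM in crush AAV-null and 28.09 CPM in sham nerves.

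Kif18a, which damps the movements of chromosomes at the spindle's middle, had 5.41, 4.6, 3.85, 5.81 and 4.75 CPM in crush AAV-CNTF, 5.72, 8.36, 3.76, 4.38 and 6.19 CPM in crush AAV-null and 2.5, 1.66, 1.12, 1.5 and 1.01 CPM in sham libraries. It rose by 1.86 ± 0.42 (SE; edgeR adjusted p = 0.00187). Kif20b, a motor of cytokinesis, had 6.25, 5.8, 9.58, 7.75 and 8.58 CPM in crush AAV-CNTF, 12.5, 8.71, 8.5, 8.485 and 9.54 CPM in crush AAV-null and 3.43, 3.51, 3.44, 0 and 2.87 CPM in sham libraries. Kif20b rose by 1.84 ± 0.56 (SE; edgeR adjusted p = 0.0169), without overlap between crush and sham. Its value of 0 in sham replicate 5 stood apart from the other sham libraries.

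Kif22 and Kif4, both motors that bind chromosomes, were not called in this comparison. Kif22 averaged 7.169 ± 3.027 CPM in crush AAV-null and 2.497 ± 2.461 CPM in sham nerves (SD, n = 5 each; edgeR adjusted p = 0.0888), with sham libraries from 0.049 to 5.122 CPM. It passed without sham replicate 3 (adjusted p = 0.0423) or 5 (0.0462), with limma-voom (0.0161) and with DESeq2 (0.0456). Kif4 averaged 11.71 ± 2.101 and 12.6 ± 3.269 CPM in the same order (edgeR adjusted p = 0.821). The windows printed above for Kif22 and Kif4 hold CCAAT and TTTGAA too. Kif4 overlaps Pdzd11 on the other strand, at 33.42 CPM in crush AAV-null and 27.81 CPM in sham nerves, and its counts were not whole in 10 libraries.

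**Figure D4:**
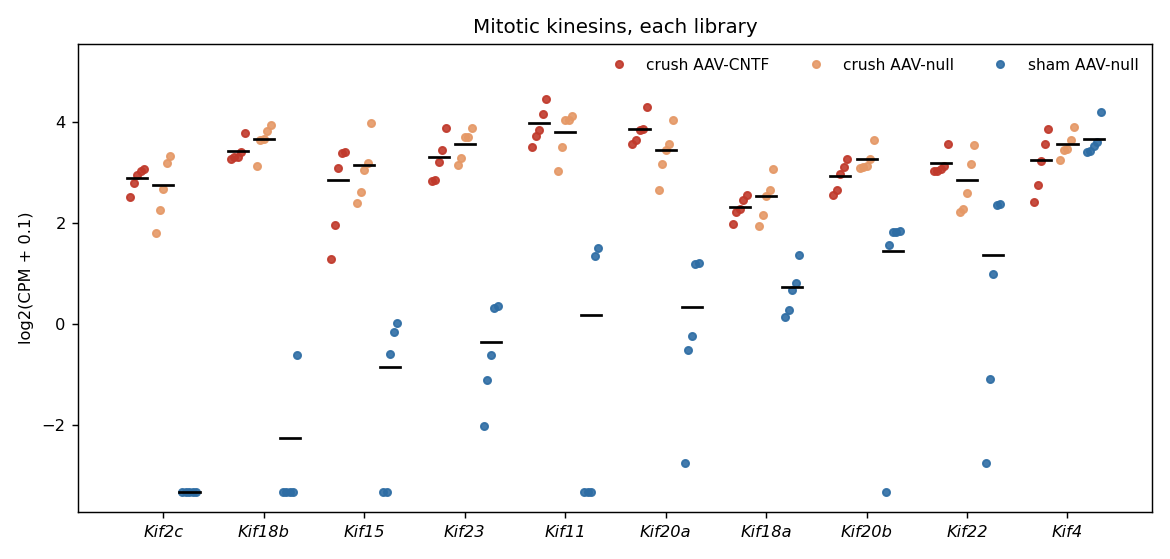
Log2(CPM + 0.1) of the 10 mitotic kinesins in each library, with crush AAV-CNTF, crush AAV-null and sham from left to right within each gene. Points are libraries and black bars are the means in CPM on the same scale, and the lowest row of points stands for 0. Crush libraries lie above sham libraries in 8 genes, and overlap with them in Kif4 and, for crush AAV-null, in Kif22.

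Marker genes of dividing cells were higher in the same nerves. Mki67, Top2a, Cdk1, Ccnb1 and Ccna2 all rose (5 of 5), where 14.7% of all genes were called higher. Like the mitotic members, low genes among these markers could enter the table through the crush groups, so their count is a description only. Their summed FPKM ranged from 65.25 to 99.32 in crush AAV-CNTF, 79.33 to 110.6 in crush AAV-null and 4.17 to 12.24 in sham libraries. The 4 markers of microglia and macrophages rose as well (4 of 4), with sums of 956.5 to 1360, 1295 to 2022 and 277.9 to 416.8 FPKM in the same order. Of the 3 fibroblast markers Col1a1 and Lum rose, by 1.94 and 1.12 on the log2 scale (edgeR adjusted p = 6.69e-06 and 0.000964), and Dcn was not called, at 378.2 CPM in crush AAV-null and 274.0 CPM in sham nerves. Their sums were 590.9 to 1454, 569.4 to 867.8 and 204.2 to 338.9 FPKM, again in that order. Of the 2 markers of NG2 glia Cspg4 rose by 1.35 (edgeR adjusted p = 1.77e-07) and Pdgfra was not called, at 117.8 CPM in crush AAV-null and 130.6 CPM in sham nerves. These summed to 40.69 to 59.36 FPKM in crush AAV-CNTF, 44.89 to 60.73 in crush AAV-null and 30.95 to 38.25 in sham libraries. Which cells hold the mitotic kinesins was not tested. The 10 mitotic members summed to 46.6 ± 8.264 FPKM in crush AAV-null and 8.03 ± 3.7 FPKM in sham nerves (SD, n = 5 each), 5.343% ± 1.236 and 0.2386% ± 0.1274 of the members' FPKM. No crush library was highest in more than 3 of the 10 genes.

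Partners of the mitotic kinesins rose with them. Of 22 spindle and midbody genes tested, 19 rose and 1 fell, beside 14.7% and 12.9% of all genes. Their median log2 fold change was 3.02, and Cenpe and Kifc1 are counted here as well as above. Prc1, which bundles midzone microtubules and binds Kif4, rose by 4.02 ± 0.48, and Tpx2, a spindle assembly factor that binds Kif11, by 3.25 ± 0.33 (SE; edgeR adjusted p = 2.25e-06 and 2.57e-07). Racgap1, which forms centralspindlin with Kif23, rose by 2.29 ± 0.28 (SE; edgeR adjusted p = 3.26e-06). Anln, a scaffold of the cleavage furrow that mature oligodendrocytes also express, fell by 0.98 ± 0.12 (SE; edgeR adjusted p = 3.04e-06). Like the mitotic members, low genes of this list could enter the table through the crush groups.

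Of the 5 cilium genes 1 rose and 1 fell in crush AAV-null nerves, beside 14.7% and 12.9% of all genes. Kif6, a motor tied to motile cilia of ependymal cells, had 3.85, 4.91, 3.5, 4.445 and 4.91 CPM in crush AAV-CNTF, 2.84, 3.42, 8.55, 3.66 and 1.15 CPM in crush AAV-null and 15.5, 19.2, 9.96, 15.2 and 16.2 CPM in sham libraries. It fell by 1.96 ± 0.39 on the log2 scale (SE; edgeR adjusted p = 0.000597), with no overlap. Kif19a, which limits the length of motile cilia in mice, averaged 18.95 ± 0.9507 CPM in crush AAV-null and 7.805 ± 2.751 CPM in sham nerves (SD, n = 5 each) and rose by 1.28 ± 0.24 (SE; edgeR adjusted p = 0.000398), also without overlap. Kif7, a regulator of Hedgehog signalling at the cilium tip, Kif9, a motor of motile cilia, and Kif24, which acts at centrioles, were not called, at means of 3.759 to 7.789 CPM in crush AAV-null and 4.11 to 6.433 CPM in sham nerves. Of 19 genes of intraflagellar transport, the traffic within cilia that kinesin-2 drives, 1 fell (Dync2h1, -0.44, edgeR adjusted p = 0.0305) and none rose. DESeq2 called 2 of the 19 lower, and limma on the authors' FPKM called 0 of them. None of 4 markers of motile ciliated cells was called in crush AAV-null against sham, with sums of 14.81 to 32.98 and 24.54 to 33.58 FPKM in those libraries. In crush AAV-CNTF against sham 1 of them, Foxj1, was lower (-0.63, edgeR adjusted p = 0.0119).

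Among the 4 remaining genes, Kif21a, which restrains microtubule growth at the cell cortex and is mutated in a human eye movement disorder, had 81.6, 58.2, 74.8, 75.45 and 71.8 CPM in crush AAV-CNTF, 71.1, 66.3, 75.4, 68 and 77.1 CPM in crush AAV-null and 222, 183, 206, 278 and 227 CPM in sham libraries. It fell by 1.64 ± 0.11 on the log2 scale (SE; edgeR adjusted p = 1.65e-09), without overlap. Kif26a, a kinesin that does not hydrolyse ATP, averaged 17.65 ± 2.564 CPM in crush AAV-null and 10.47 ± 2.769 CPM in sham nerves (SD, n = 5 each) and rose by 0.75 ± 0.25 (SE; edgeR adjusted p = 0.0274). Its libraries overlapped, and the call was lost without crush AAV-null replicate 2, or without sham replicate 2, 4 or 6 (adjusted p 0.0565 to 0.0698). Kif21b, a relative of Kif21a, and Kif2a, which takes microtubules apart, were not called, at 106.1 ± 7.265 and 40.54 ± 8.318 CPM in crush AAV-null and 120.4 ± 9.828 and 41.9 ± 8.212 CPM in sham nerves (SD, n = 5 each).

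AAV-CNTF against AAV-null after crush asks what the cytokine added to the injury. No member was called in either direction by edgeR, and 6 of 34 members had an unadjusted p under 0.05, all with a negative fold change, beside 7.69% of all genes in either direction. Over all genes 0.0423% were called higher and 0.0141% lower, so few genes of any kind passed. No member was called by DESeq2, limma-voom or limma on FPKM either. In these nerves 23 of 34 log2 fold changes were negative (50.5% over all genes), with a median of -0.16 against -0.003 for all genes.

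The 3 members of smallest p were Klc4, Kif1c and Klc1. Klc4 had 8.41, 13.6, 9.97, 5.13 and 11.5 CPM in crush AAV-CNTF, 21.9, 11.4, 14.3, 17.2 and 15.2 CPM in crush AAV-null and 12.1, 11.8, 15, 11.3 and 16 CPM in sham libraries. Its log2 fold change with AAV-CNTF was -0.71 (95% interval -1.23 to -0.20; edgeR unadjusted p = 0.0092, adjusted p = 0.425), and the crush groups overlapped. Kif1c changed by -0.24 (-0.43 to -0.06; adjusted p = 0.455) and Klc1 by -0.28 (-0.51 to -0.05; adjusted p = 0.502). For Kif5a the value was -0.40 (-0.77 to -0.03; edgeR adjusted p = 0.612), an interval that only just leaves out 0. For mitotic members the intervals were wide. That of Kif2c ran from -0.74 to 1.00 and that of Kif11 from -1.26 to 1.61. The interval of Kif11 thus does not exclude a 2-fold difference between the crush groups in either direction.

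Crush with AAV-CNTF against sham shares its sham libraries with the first comparison, so its values stand beside those and are no independent repeat. There 11 members were higher and 15 lower, where 17% of all genes were called higher and 14.3% lower. Kif5a changed by -5.56 ± 0.22 on the log2 scale in crush AAV-CNTF over sham, beside -5.16 ± 0.21 in crush AAV-null over sham (SE), and again had the smallest p of all genes (rank 1). Of transport genes 12 of 15 were lower, and of mitotic genes 9 of 10 were higher, Kif22 among them (1.85 ± 0.65 SE, edgeR adjusted p = 0.0356). Kif21b was called lower (-0.36 ± 0.12 SE, adjusted p = 0.0293). Its call was lost without crush AAV-CNTF replicate 3 or 5 or sham replicate 3, 5 or 6 (adjusted p 0.0536 to 0.0756), with only the 10 libraries compared (0.0545) and with limma on FPKM (0.321 and 0.327). The call of Kif22 was lost without crush AAV-CNTF replicate 3, 5 or 6 or sham replicate 4 or 6 (adjusted p 0.0502 to 0.0731), with the 10 libraries (0.0654) and with limma on FPKM at a pseudocount of 0.1 (0.058). Kif26a was not called (0.20 ± 0.25 SE, adjusted p = 0.589). Whether these calls differ between the crush groups is the comparison before, in which none of the 3 passed. In crush AAV-CNTF against sham the rises of Kif20b, Kif19a and Kif3b were called by edgeR (adjusted p 0.0428, 0.0364 and 0.0301). Those calls were lost in 11, 8 and 5 of 25 alternatives. The authors' deposited table called 10 members higher and 14 lower in crush AAV-null against sham, 8 higher and 14 lower in crush AAV-CNTF against sham, and none between the crush groups (adjusted p under 0.05). It did not call Kif20b, Kif19a or Kif3b in crush AAV-CNTF against sham (adjusted p 0.0711, 0.1056 and 0.0629).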

How the data were processed

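RNA was measured in 15 optic nerve libraries. Per the labels' protocols 2 library kits are named, and the sources used here do not tie either to a library. The submitters' processing notes name Trimmomatic 0.32, STAR 2.5.3a, RSEM 1.2.31, R 3.2.3, DESeq2 and the build mm10. The authors deposited 1 table with, per the file headers, expected counts per gene and library. It also holds FPKM, which the authors scaled by gene length and depth. The authors deposited a log2 fold change and an adjusted p-value for each pair of groups, used here only where named.

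Of the expected counts 13.7% to 18.3% per library were not whole (by over 0.005) and were rounded. Counts were tested in R 4.3.3 with edgeR 4.0.16 (TMM, filterByExpr, quasi-likelihood, 1 model with a mean per group, 12 residual degrees of freedom, Benjamini-Hochberg over 14194 genes). The biological coefficient of variation was 0.371. Each SE of a log2 fold change is its size divided by the square root of the quasi-likelihood F statistic. The 95% intervals were built from that SE. The script was tested on simulated data. Alternatives used limma 3.58.1 and DESeq2 1.42.0, other scalings and filters, the replicate number as a block, and each library left out. Levels between genes are compared in FPKM and within a gene in CPM. Positions came from GENCODE M21. Replicates are biological per the design. P-values measure the spread between these libraries, and at low counts counting error too.

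Members and lists were chosen with earlier results of these data known. By the naming rule, values in every library are given for the 8 largest rises and 8 largest falls in crush AAV-null against sham, the 3 smallest p of AAV-CNTF against AAV-null, the 4 highest FPKM in sham, and members at 0 in a whole group.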

Additional observations from a re-analysis of the deposited data

Results flagged for a closer look

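In 11 of 102 member and group combinations, 1 library stood apart from the other 4 by more than Dixon's critical ratio of 0.71, and chance alone marks about 1 in 20. The explanation of each was not tested. Crush AAV-CNTF replicate 2 stood high in Kif18b (13.7 CPM, others 9.611 to 10.54) and in Kif19a (18.19 CPM, others 9.682 to 12.1). Crush AAV-CNTF replicate 3 stood high in Kif5b, with 319.1 CPM and the others at 281.7 to 292.4 CPM. In crush AAV-CNTF replicate 5, Kif1a was low (347.5 CPM, others 457.1 to 495.4) and Kif22 high (11.78 CPM, others 8.069 to 8.694). Crush AAV-null replicate 2 was high in Kif20b (12.47 CPM, others 8.485 to 9.54) and Kif3a (56.33 CPM, others 33.58 to 38.29), and crush AAV-null replicate 4 was high in Kif3c (87.44 CPM, others 68.6 to 71.01). Among sham libraries, replicate 3 alone had counts of Kif18b (0.5537 CPM, others 0), and replicate 5 had 0 CPM of Kif20b (others 2.874 to 3.507) and 18.34 CPM of Kif4 (others 10.52 to 12.02). No library was marked in more than 2 members.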

How the results depend on the processing

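Each value was recomputed under 25 alternatives, 15 of which leave out 1 library. In crush AAV-null against sham, members called higher numbered 9 to 12 without 1 library and 11 to 12 otherwise (11 as reported), and members called lower 13 to 14 and 12 to 14 (14 as reported). Mitotic genes called higher numbered 8 to 9, and transport genes called lower 10 to 12. Between the crush groups the count of members was 0 under every alternative, and with the replicate block 16 genes in all were called (14 higher and 2 lower), against 8. With the replicate block the counts of members were 12 higher and 14 lower in crush AAV-null against sham, Kif22 being the one gained (adjusted p = 0.0314). Same-numbered libraries did not deviate together (correlations -0.053 to 0.113 over 15 pairs), so they were not treated as paired. In crush AAV-CNTF against sham, 7 members were called higher when the fit held only the 10 libraries compared, against 11, and 8 to 11 without 1 library. The calls lost there were in Kif19a, Kif20b, Kif22 and Kif3b, whose adjusted p ranged from 0.0506 to 0.0985, and fewer libraries give fewer residual degrees of freedom.

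Limma on the authors' FPKM has no TMM scaling. It moved the median log2 fold change of all genes in crush AAV-null over sham to 0.183 (pseudocount 0.1) and 0.158 (pseudocount 1), and the calls to 2253 higher and 802 lower, or 2286 and 847, against 2087 and 1825. Over all alternatives Kif5a lay between -5.33 and -5.03 there. The sign of 4 uncalled members turned. Kif24 was at -0.13 as reported, at -0.409 to 0.076 without 1 library, and at 0.187 with limma-voom, 0.918 and 0.464 with FPKM, 0.018 without crush AAV-null replicate 6, and 0.042 and 0.076 without sham replicates 4 and 6. Kif2a was at -0.05, at -0.174 to 0.017 without 1 library, and at 0.418 and 0.394 with FPKM, 0.013 and 0.008 without crush AAV-null replicates 2 and 4, and 0.017 and 0.002 without sham replicates 2 and 4. Kif3a was at -0.24, and at 0.181 and 0.175 with FPKM. Kif4 was at -0.11, at -0.207 to 0.066 without 1 library, and at 0.052 and 0.037 with FPKM and 0.066 without sham replicate 5. The causes were not tested. Counts at or near 0 in sham limit the size of the mitotic rises.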

Other observations

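Tubulin genes, most of which encode subunits of the tracks that kinesins walk on, changed as well. Of 12 tubulin genes tested, 8 were higher and 1 lower in crush AAV-null than in sham nerves, beside 14.7% and 12.9% of all genes. Their median log2 fold change was 0.52, against 0.00 for all genes. Tuba1c, an alpha tubulin, averaged 68.6 CPM in crush AAV-null and 21.4 CPM in sham nerves and rose by 1.68 ± 0.14 (SE; edgeR adjusted p = 1.43e-08). Tubb5, a beta tubulin of most cells and of dividing ones, averaged 449 and 191 CPM in the same order and rose by 1.24 ± 0.09 (SE; edgeR adjusted p = 6.21e-09). Tubb6 rose by 1.13 ± 0.18 (SE; edgeR adjusted p = 6.85e-05). Tubb4a, a beta tubulin abundant in oligodendrocytes, was the gene that fell, by 0.42 ± 0.13 (SE; edgeR adjusted p = 0.0179), and it was not called by limma on FPKM. Tubb3, the beta tubulin used as a neuronal marker, was not called, at 65.1 CPM in crush AAV-null and 78.0 CPM in sham nerves (edgeR adjusted p = 0.295). Tuba1a was not called either, at 1161 and 1168 CPM. No tubulin was called between crush AAV-CNTF and crush AAV-null nerves.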
